A study of Rattus norvegicus with 8 samples.

Results

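The 9 genes Lrat, Reln, Rgs5, Des, Cygb, Hhip, Colec11, Ecm1 and Ngfr are used as identity genes of the hepatic stellate cell. They were taken as every probe set whose single gene symbol in the platform annotation is one of these names, which gave 10 probe sets of 31042 tested, for 9 of 14217 genes measured. Reln had 2 probe sets and the other 8 genes had 1 each. Their transcripts were measured in whole liver of male Wistar rats made cirrhotic by inhaled carbon tetrachloride (CCl4), a hepatotoxin. The vehicle group held 4 rats and the treated group 4 rats given angiogenesis inhibitors, neither named nor dosed in the sources used here. The series text calls the controls non-treated while the sample labels call them vehicle. All animals of both groups had cirrhosis and had 0.3 g/L phenobarbital, which induces drug-metabolizing enzymes, in their drinking water. No healthy liver was analysed here, and the sources used here give neither the age of the rats nor the length of treatment. By the series text 8 Affymetrix Rat2302 arrays took 1 liver each, and the values are log2 intensities from robust multi-array average (RMA). RMA is a background correction of each array, followed by quantile normalization and summary of the probes over all arrays. Differences are given on the log2 scale as treated minus vehicle, and values after ± are SDs over 4 arrays.

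Stellate cells lie between the hepatocytes and the sinusoidal endothelium, where they store vitamin A as retinyl esters and act as the pericytes of the sinusoid. After injury they lose their retinoid droplets and turn into contractile, collagen-making myofibroblasts, a change called activation. Some of the genes that mark the resting cell are lost on activation, while others stay on in the myofibroblast. The comparison asks how transcripts that mark these cells differ in cirrhotic liver with an angiogenesis inhibitor. In bulk liver RNA, fewer cells of a type and less RNA per cell cannot be told apart.

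None of the 10 probe sets passed the test between the groups (0 of 10). Lrat, Rgs5, Colec11 and Ecm1 had higher means in treated livers, by 0.23 to 0.54. Cygb had the largest difference and ran the other way, at −0.74. Des, Ngfr and the brighter Reln probe set had lower means, by 0.15 to 0.24, and Hhip and the other Reln probe set differed by 0.10 and 0.02. In limma with Benjamini-Hochberg adjustment over 31042 probe sets, the background was 0 called (0%), with a smallest adjusted p of 0.979. At an unadjusted p of 0.05 the members counted 0 of 10, against 3.93% of all probe sets. Of the members 4 of 10 had a lower mean in treated livers, against 45.3% of all probe sets, and their median difference was 0.06, against 0.02 over all probe sets. Groups without overlap were found at 0 of 10 members and at 1.67% of all probe sets. No member differed by 2-fold or more (0 of 10, against 1.11%).

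Vehicle 4 and treated 3 were nearly the same array, which touches every value below. Across probe sets their values correlated at r = 0.996, and of 9235 bright probe sets (mean above 7) a 2-fold gap was seen at 0, where the 27 remaining pairs had 245 to 1627. Whether they come from separate livers, and whether both labels are right, is not given in the sources used here, so the number of livers in a group may be below 4. Each kept its label, and the members' differences are also given without both, on 6 arrays with 3 per group. On 6 arrays limma called 3 probe sets (0.00966%), none of them a member (0 of 10). There, 2 of 10 members had an unadjusted p under 0.05, Lrat and Rgs5, against 6.52% of all probe sets. Bacterial spike-in controls placed vehicle 1 with treated 1, the near-identical arrays together, and the other 4 arrays together. The Gapdh 3′ control probe set minus the 5′ one (log2), a measure of RNA integrity, lay between 0.19 and 0.41 in vehicle and between 0.13 and 0.40 in treated livers. The 12 measured hepatocyte markers had means of 13.13 to 13.34 on the vehicle and 12.85 to 13.32 on the treated arrays, with 0 of 12 below the median level of all probe sets.

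The sequences before the transcription start are shown for Lrat, Rgs5, Colec11 and Ecm1, the 4 genes whose treated means were higher by 0.23 or more. Each is the 250 bases before the RefSeq start in the rat assembly GRCr8, read 5′ to 3′ on the gene's strand. Capitals mark TATAA, the core of the TATA box, and GGGCGG, the GC box, on either strand.
Lrat: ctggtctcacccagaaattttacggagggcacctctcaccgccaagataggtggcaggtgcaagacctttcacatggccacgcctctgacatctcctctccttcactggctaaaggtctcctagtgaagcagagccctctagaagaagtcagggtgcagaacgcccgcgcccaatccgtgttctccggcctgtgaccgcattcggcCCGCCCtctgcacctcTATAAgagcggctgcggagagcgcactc
Rgs5: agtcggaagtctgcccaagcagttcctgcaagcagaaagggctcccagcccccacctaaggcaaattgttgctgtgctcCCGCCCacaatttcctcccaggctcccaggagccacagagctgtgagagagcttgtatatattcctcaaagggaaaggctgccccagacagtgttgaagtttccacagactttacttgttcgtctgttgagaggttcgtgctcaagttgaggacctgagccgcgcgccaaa
Colec11: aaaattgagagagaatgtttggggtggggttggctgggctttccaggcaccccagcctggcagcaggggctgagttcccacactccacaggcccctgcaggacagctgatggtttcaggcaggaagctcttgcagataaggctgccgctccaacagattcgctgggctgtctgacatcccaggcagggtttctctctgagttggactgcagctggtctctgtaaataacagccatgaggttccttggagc
Ecm1: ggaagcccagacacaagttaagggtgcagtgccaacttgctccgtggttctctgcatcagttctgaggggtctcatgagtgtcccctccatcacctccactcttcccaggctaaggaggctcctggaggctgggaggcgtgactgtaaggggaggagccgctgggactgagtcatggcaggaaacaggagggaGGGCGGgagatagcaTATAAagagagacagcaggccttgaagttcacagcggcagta
The Lrat window is chr2:170571213-170571462 on the minus strand and the Rgs5 window chr13:84380827-84381076 on the plus strand. The Colec11 window is chr6:50984846-50985095 and the Ecm1 window chr2:185981607-185981856, both on the minus strand. Lrat carries TATAA from 28 bases before the start and a GC box 44 bases before it, and Ecm1 carries TATAA 42 and a GC box 57 bases before its start. Rgs5 has a single GC box, 171 bases before the start, and no TATAA. Colec11 has neither motif in this window. Of 33469 windows of the same length, 24.0% hold TATAA and 30.5% hold GGGCGG on either strand. Promoter sequences were found for 7 of the 9 members, of which 2 hold TATAA and 5 hold GGGCGG. The nuclear receptor half-site AGGTCA occurs in 14.1% of all windows, the hedgehog-effector (Gli) motif GACCACCCA in 0.338% and the CArG box in 1.5%, and each occurs in 0 of the 7. The last motif searched, CANNTG with N any base, occurs in 65.5% of all windows and in 5 of the 7. Lrat and Colec11 hold it, and Rgs5 and Ecm1 do not. Shared letters describe these windows only, and the 4 genes do not share a motif among those searched. Cygb and Ngfr are named only.

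**Figure D1:**
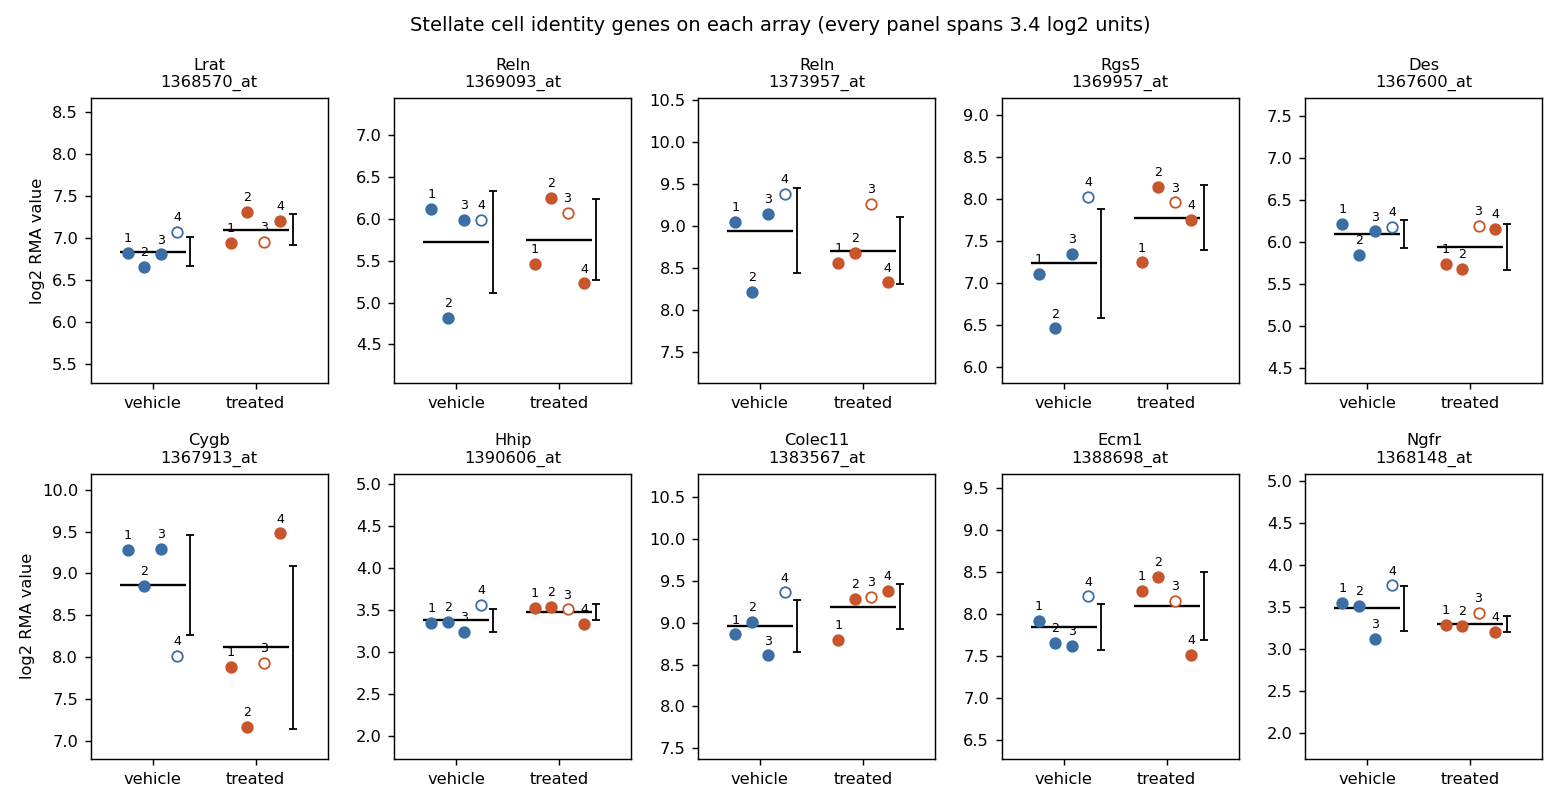
Log2 RMA value of each of the 10 member probe sets on the 4 vehicle (blue) and 4 treated (orange) arrays, numbered by replicate; lines are group means, bars are SDs, and open circles are the near-identical vehicle 4 and treated 3. Every panel spans the same number of log2 units, so that the wide spread of Cygb (7.17 to 9.48) can be set beside the narrow one of Lrat (6.66 to 7.31).

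Lrat (1368570_at), lecithin retinol acyltransferase, makes the retinyl esters that resting stellate cells store. Its log2 value was 6.82, 6.66, 6.80 and 7.07 on the vehicle arrays, in the order of replicates 1 to 4, and 6.94, 7.31, 6.95 and 7.21 on the treated arrays. All 4 treated arrays lay above the vehicle mean and 2 lay above the highest vehicle array, so the groups overlapped only through vehicle 4. The means were 6.84 ± 0.17 and 7.10 ± 0.19, a difference of 0.26 (SE 0.14, 95% interval −0.04 to 0.57, limma unadjusted p = 0.0831, adjusted p = 0.979). Without the near-identical arrays the difference was 0.39 (0.06 to 0.73, limma unadjusted p = 0.0284, adjusted p = 0.746) and the groups of 3 did not overlap. Lrat was the only member without overlap on 6 arrays (1 of 10), against 10.3% of all probe sets, 5.88% in this direction. Within the spike-in groups the difference was 0.12 in the first, 0.53 in the second and −0.12 between the near-identical arrays. Leaving out single arrays gave 0.19 to 0.34, the latter without vehicle 4 (limma unadjusted p = 0.035, adjusted p = 0.598).

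The other genes of retinoid handling mostly had higher means in treated livers too. Of 35 measured genes, Lrat among them, 23 had higher and 12 lower means, with a median difference of 0.09. Of all 14217 genes, 7332 had higher and 6885 lower means, with a median of 0.01. None passed over all probe sets (0 called), and 3 had an unadjusted p under 0.05, all higher, in a background of 1.89% of probe sets in that direction. These were Retsat (1370806_at), retinol saturase, at 10.32 ± 0.75 and 11.30 ± 0.27, Rxra (1369101_at), the retinoid X receptor that pairs with the retinoic acid receptors, with a difference of 0.53, and Dhrs4 (1370814_at), a retinal reductase, with 0.28. Aldh1a1 (1387022_at), which oxidizes retinal to retinoic acid, differed by 0.52 (−0.02 to 1.05). On 6 arrays the median of these 35 genes was 0.12. Most of these enzymes are also made by hepatocytes, whose part in these values was not tested.

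Rgs5 (1369957_at), a regulator of G protein signalling, ends signals of vasoactive receptors in pericytes and stellate cells. Its values were 7.11, 6.46, 7.35 and 8.02 on the vehicle arrays and 7.24, 8.15, 7.96 and 7.75 on the treated arrays. All 4 treated arrays lay above the vehicle mean, vehicle 3 and 4 lay within the treated range, and vehicle 2 was the lowest of the 8. The means were 7.23 ± 0.65 and 7.78 ± 0.39, a difference of 0.54 or 1.46-fold (SE 0.32, 95% interval −0.18 to 1.27, limma adjusted p = 0.979). On 6 arrays it was 0.74 (0.01 to 1.47, limma adjusted p = 0.762), and treated 1 then lay within the vehicle range. Without vehicle 2 it was 0.28 and without vehicle 4 it was 0.80 (limma unadjusted p = 0.018, adjusted p = 0.533). Within the spike-in groups it was 0.14, 1.05 and −0.06. Of the 14 measured genes of the RGS family, 8 had lower and 6 higher means (median −0.06). The 2 with an unadjusted p under 0.05 were lower, Rgs10 (1390707_at) and Rgs2 (1387074_at), each at −1.39, in a background of 2.04%. Rgs10 is known from leukocytes and Rgs2 from many cell types. Leukocyte markers stood beside them, with 9 of 13 measured genes lower, a median of −0.58, and list means of 6.70 to 7.70 on vehicle and 6.26 to 7.49 on treated arrays. The part of leukocytes in the RGS values was not tested.

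Colec11 (1383567_at), collectin-11, is a secreted sugar-binding protein that starts the lectin pathway of complement. It stood at 8.86, 9.01, 8.61 and 9.36 on the vehicle arrays and at 8.80, 9.28, 9.31 and 9.38 on the treated arrays. Treated 2 to 4 lay close together and treated 1 lay apart, below the vehicle mean, while vehicle 4 stood with the high treated arrays. The means were 8.96 ± 0.31 and 9.19 ± 0.27, a difference of 0.23 (−0.20 to 0.66, limma adjusted p = 0.979), and of 0.32 on 6 arrays. It was 0.11 without vehicle 3 and 0.36 without vehicle 4 or without treated 1. Among 10 measured genes of the lectin pathway 6 had higher and 4 lower means, with a median of 0.09. The mannose-binding lectin Mbl2 (1379240_at) differed by 0.40 (0.0035 to 0.80, limma unadjusted p = 0.0484, adjusted p = 0.979). Fcnb (1387378_at), a ficolin of myeloid cells, averaged 4.40 ± 0.14 and 4.03 ± 0.15 without overlap, which was found at 1.67% of all probe sets. Its signal was low, at the 33.6 percentile of probe set means. Of the proteases that bind collectins, Masp1 (1390585_at) differed by −0.34 (−0.87 to 0.19) and Masp2 (1371025_at) by 0.27 (−0.22 to 0.77). The intervals of both proteases include 0.

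Ecm1 (1388698_at), extracellular matrix protein 1, is a secreted glycoprotein that keeps TGF-beta in its latent form in liver matrix. Hepatocytes make it as well as stellate cells, so its whole-liver value is not that of stellate cells alone. Its values were 7.92, 7.65, 7.62 and 8.21 on the vehicle arrays and 8.28, 8.44, 8.16 and 7.52 on the treated arrays. The treated group held both the highest arrays (treated 1 and 2) and the lowest (treated 4). The means were 7.85 ± 0.28 and 8.10 ± 0.41, a difference of 0.25 (−0.24 to 0.74, limma adjusted p = 0.979). It was 0.44 without treated 4 (limma unadjusted p = 0.0312, adjusted p = 0.515) and 0.13 without treated 2.

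Cygb (1367913_at), cytoglobin, is a haem protein of stellate cells that binds oxygen and consumes nitric oxide. Its values were 9.28, 8.85, 9.29 and 8.02 on the vehicle arrays and 7.89, 7.17, 7.93 and 9.48 on the treated arrays. On 3 of 4 treated arrays it lay below every vehicle array, but treated 4 was the highest of the 8. The range over all arrays, 2.31, was the widest of the members. The means were 8.86 ± 0.60 and 8.12 ± 0.97, a level 1.67-fold lower with an interval of the difference from −1.82 to 0.33 (SE 0.47, limma unadjusted p = 0.151, adjusted p = 0.979). It was −0.96 (−2.27 to 0.34) on 6 arrays, −1.20 without treated 4 (limma unadjusted p = 0.00759, adjusted p = 0.515) and −0.43 without treated 2. Without treated 4, 2885 of 31042 probe sets had an unadjusted p under 0.05. Within the spike-in groups it was −1.40 in the first, −0.75 in the second and −0.08 between the near-identical arrays. In the same protein family, neuroglobin (Ngb, 1370798_a_at) differed by 0.05 (−0.48 to 0.58). The beta-globin gene Hbb (1367553_x_at), which comes from red cells, averaged 10.75 ± 0.91 and 8.94 ± 0.59. Of 6 measured blood markers 4 had lower and 2 higher means (median −0.10; 2, Hbb and Alas2, at an unadjusted p under 0.05, both lower, in a background of 2.04%), with list means of 5.87 to 6.59 on vehicle and 5.74 to 6.22 on treated arrays, and the 6 measured globin family genes split, with Cygb and Hbb among them, into 3 lower and 3 higher (2 lower after median centring; median −0.0075, turning to 0.046). The part of blood content in the Cygb value was not tested.

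**Figure D2:**
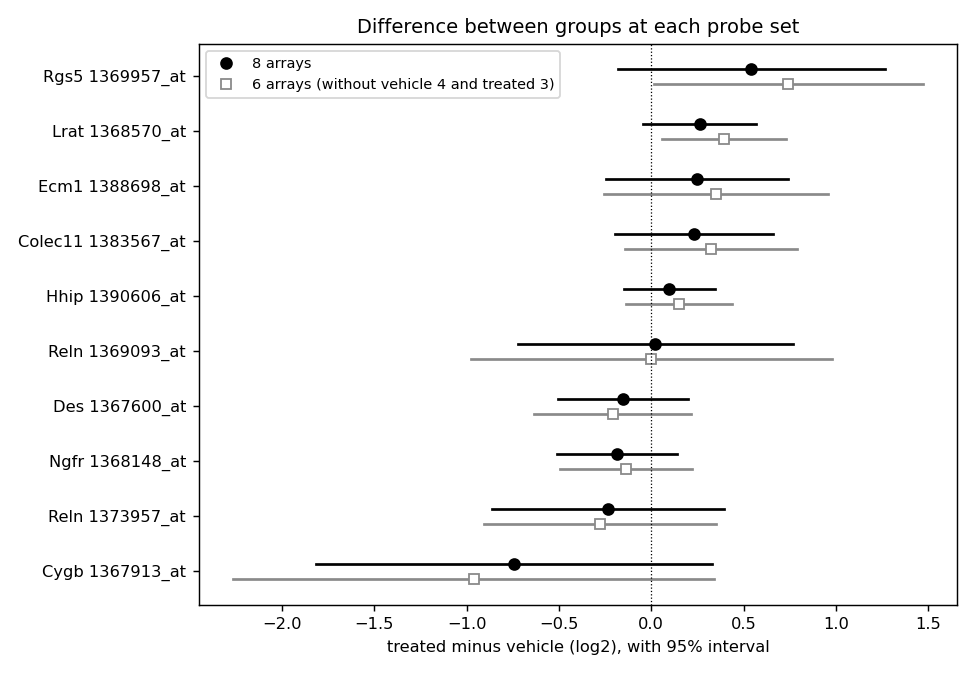
Treated minus vehicle difference (log2) with its 95% interval from limma for each member probe set, on 8 arrays (black) and without vehicle 4 and treated 3 (grey). On 8 arrays every interval includes 0; on 6 arrays those of Lrat and Rgs5 do not, before adjustment for the number of probe sets.

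Des (1367600_at), desmin, is the muscle-type intermediate filament protein by which rat stellate cells are commonly stained. Its values were 6.22, 5.85, 6.12 and 6.18 on the vehicle arrays and 5.74, 5.67, 6.19 and 6.15 on the treated arrays. Treated 1 and 2 lay below all vehicle arrays, while treated 3 and 4 lay among the highest of the vehicle arrays. The means were 6.09 ± 0.17 and 5.94 ± 0.27, a difference of −0.15 (−0.51 to 0.20, limma adjusted p = 0.979). It was −0.07 without treated 2, −0.09 without treated 1, −0.24 without vehicle 2 and −0.24 without treated 3. Desmin is also made in smooth and striated muscle. Of 10 measured smooth muscle markers, Des among them, 7 had lower means (median −0.08; 5 lower after median centring), with list means of 5.63 to 5.93 on vehicle and 5.32 to 5.75 on treated arrays. Of 12 striated muscle markers, 11 lay below the median level of all probe sets, Myh1 being the other. The part of smooth muscle in the Des value was not tested. Of 15 measured intermediate filament and linker genes, 13 had lower and 2 higher means (11 lower after median centring), with a median of −0.22, and 0 had an unadjusted p under 0.05. Vim (1367574_at), vimentin, the filament of mesenchymal cells and leukocytes, averaged 10.06 ± 0.52 and 9.15 ± 0.87 (difference −0.91, −1.86 to 0.04). Nes (1386948_at), nestin, differed by −0.27 (−0.57 to 0.02), and by −0.15 on 6 arrays. Its groups did not overlap on 8 arrays, which was found at 1.67% of all probe sets. They nearly touched, with vehicle 2 at 4.51 and treated 2 at 4.50, and vehicle 4 was the highest array, at 5.02.

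Reln, reelin, is a large secreted glycoprotein that marks stellate cells in liver and is also made by lymphatic endothelium. The brighter probe set (1373957_at) read 9.05, 8.21, 9.14 and 9.38 on the vehicle arrays and 8.56, 8.68, 9.27 and 8.33 on the treated arrays. The other (1369093_at) read 6.12, 4.82, 5.99 and 5.98 on vehicle and 5.46, 6.24, 6.07 and 5.23 on treated arrays. Vehicle 2 was the lowest of the 8 at both, and treated 4 was the lowest treated array at both. The brighter probe set differed by −0.24 (−0.87 to 0.39, limma adjusted p = 0.979), by −0.48 without vehicle 2, by −0.09 without vehicle 4 and by −0.11 without treated 4. The dimmer differed by 0.02 (−0.72 to 0.77, limma adjusted p = 1), and turned to −0.28 without vehicle 2, −0.14 without treated 2 and −0.08 without treated 3. So the probe sets did not settle a direction for Reln together. Of 12 measured genes of the reelin pathway 10 had lower means (9 after median centring), against 48.4% of all genes, with a median of −0.23 (−0.18 after centring). An unadjusted p under 0.05 was found at 1 of 12, lower, in a background of 2.04% of probe sets in that direction. It was the receptor Vldlr (1389611_at), at 7.88 ± 0.56 and 6.97 ± 0.73 (difference −0.90, −1.78 to −0.03, limma unadjusted p = 0.0437, adjusted p = 0.979). The other reelin receptor, Lrp8 (1389797_at), differed by −0.07 (−0.44 to 0.30). Of 6 measured lymphatic markers 5 had lower means, with a median of −1.10. Their list means were 8.80, 8.13, 8.28 and 6.25 on vehicle 1 to 4 and 6.23 to 6.92 on treated arrays, so vehicle 4 lay within the treated range. The part of lymphatic endothelium in the Reln value was not tested.

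Hhip (1390606_at), the hedgehog-interacting protein, binds hedgehog ligands at the cell surface and holds the pathway down in resting stellate cells. Its values were 3.35, 3.36, 3.24 and 3.56 on vehicle and 3.53, 3.53, 3.51 and 3.33 on treated arrays. These lie at the 13.3 percentile of probe set means, so the signal was dim on every array and no detection call was used. The difference was 0.10 (−0.15 to 0.35, limma adjusted p = 0.979). It was 0.05 without vehicle 3 and 0.16 without vehicle 4. Of 15 measured hedgehog genes 8 had higher and 7 lower means (5 lower after median centring), with a median of 0.10, which is the value of Hhip itself and was 0.03 on 6 arrays. The only one with an unadjusted p under 0.05 was the cell cycle target Ccnd1 (1383075_at), cyclin D1, at −1.23 (−2.38 to −0.08). Ihh (1393271_at), a ligand, differed by 0.28 (−0.27 to 0.83), the transducer Smo (1389475_at) by −0.05 (−0.36 to 0.26) and the effector Gli1 (1378720_at) by −0.02 (−0.25 to 0.21). The intervals of Smo and Gli1 leave out changes larger than 0.36 in either direction. Ptch1, the receptor, was not analysed here.

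Ngfr (1368148_at), the p75 neurotrophin receptor, is found on stellate cells, portal fibroblasts and nerve sheath. Its values were 3.55, 3.51, 3.11 and 3.76 on vehicle and 3.28, 3.27, 3.42 and 3.21 on treated arrays, at the 12.3 percentile of probe set means. All 4 treated arrays lay below the vehicle mean and within the vehicle range. The difference was −0.19 (−0.51 to 0.14, limma adjusted p = 0.979). It was −0.09 without vehicle 4 and −0.31 without vehicle 3 (limma unadjusted p = 0.0324, adjusted p = 1). Of 14 measured neurotrophin genes 7 had lower and 7 higher means (median −0.02, which turns to 0.04 when each array is centred on its median), and 0 had an unadjusted p under 0.05. The ligand Ntf3 (1387267_at), neurotrophin-3, differed by 0.68 (−0.24 to 1.60), Bex3 (1369948_at), a p75-binding protein, by −0.76 (−1.77 to 0.24) and Bdnf (1368677_at), brain-derived neurotrophic factor, by −0.07 (−0.37 to 0.23). Of 11 measured Schwann cell and nerve markers 10 had lower means (median −0.12; 7 lower after median centring) and 8 were below the median level of all probe sets, with list means of 4.98 to 5.05 on vehicle and 4.75 to 4.90 on treated arrays. Their part in the Ngfr value was not tested. On 6 arrays the members not yet given so differed by 0.35 (Ecm1), 0.15 (Hhip), −0.14 (Ngfr), −0.21 (Des), −0.28 (brighter Reln probe set) and 0.0013 (dimmer Reln probe set).

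**Figure D3:**
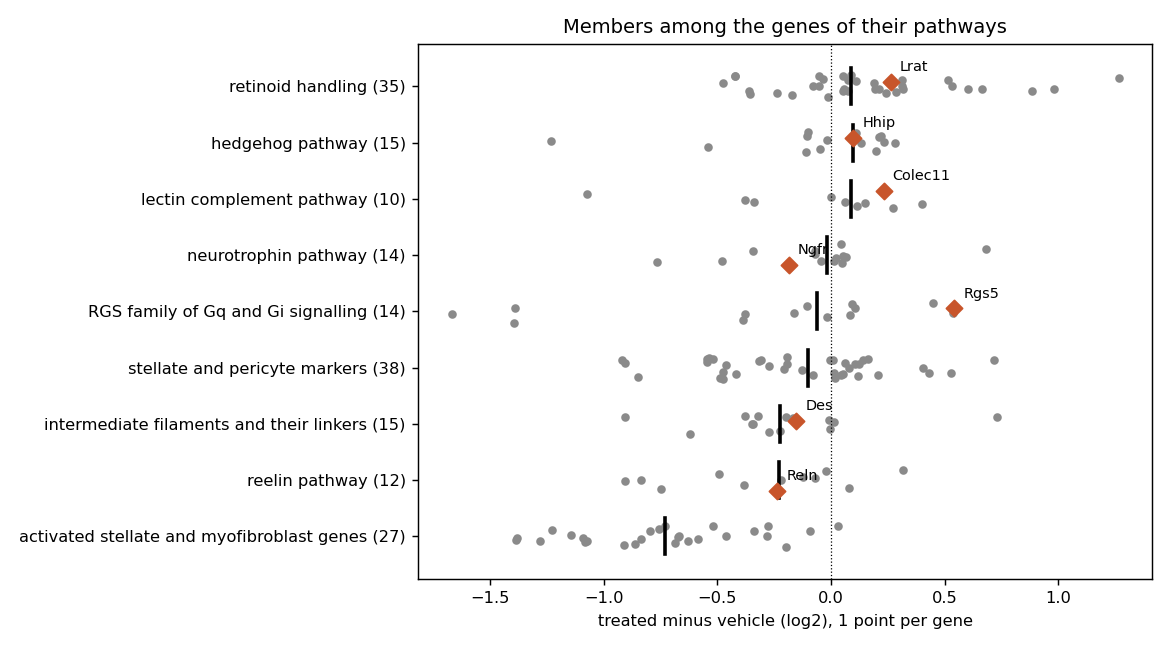
Treated minus vehicle difference (log2) of each measured gene in 7 pathway or family lists that hold a member and 2 stellate cell lists that hold none, with 1 point per gene, the number of genes in parentheses and black bars at the medians; orange diamonds are members. Among these 9 lists the activation list has the lowest median, −0.73. The hedgehog (0.10) and retinoid (0.09) medians are close, and their order turns on 6 arrays (0.03 and 0.12).

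Other markers of stellate cells and pericytes, outside the 9 members, differed in both directions. Of 38 measured genes 21 had lower and 17 higher means, with a median of −0.10. Only 1 of 38 had an unadjusted p under 0.05, a share below the 3.93% of all probe sets. That was Mcam (1374933_at), the adhesion molecule CD146 of pericytes and endothelium, at 5.83 ± 0.29 and 5.28 ± 0.23. Next by p came Vim (−0.91) and Nes (−0.27), both given above. After them, Angptl6 (1383018_at), an angiopoietin-like secreted protein, differed by 0.72 (−0.07 to 1.51), and Hand2 (1374451_at), a transcription factor of stellate cells, by −0.32 (−0.67 to 0.04). The list of activated stellate cell and myofibroblast genes ran one way, with 26 of 27 lower, against 48.4% of all genes, and a median of −0.73, against 0.01 over all genes. Of these 10 had an unadjusted p under 0.05, all lower, in a background of 2.04% of probe sets in that direction, but 0 were called after adjustment. Its genes with the smallest p were Myl9 (1388298_at), a myosin light chain, at −0.58, and Acta2 (1370857_at), smooth muscle actin, at −0.67. On 6 arrays the medians were −0.09 and −0.99. Neither list was tested as a set, and earlier results of these data had already shown the lower myofibroblast values. Markers of other cell types had lower means beside it. Of the endothelial markers 13 of 13 were lower, with a median of −0.78 and list means of 6.97 to 8.12 on vehicle and 6.93 to 7.11 on treated arrays. Of the mast cell markers 9 of 9 were lower, with a median of −0.70 and list means of 4.34 to 5.96 and 4.22 to 4.49. Of the bile duct markers 6 of 6 were lower, with a median of −0.34 and list means of 6.41 to 7.52 and 6.10 to 7.46. On treated 4 the activation mean was the highest of the treated arrays, at 8.22. The bile duct (7.46), leukocyte (7.49) and mast cell (4.49) means were also the highest of the treated arrays. So were the lymphatic (6.92), blood (6.22) and hepatocyte (13.32) means and that of portal fibroblasts and mesothelium. The endothelial mean (7.08) and those of smooth muscle and Schwann cell markers lay within the range of the other treated arrays. The striated muscle mean lay below that range. The part of these cell types in the activation values was not tested. Markers of portal fibroblasts and mesothelium had 12 of 14 lower (10 after median centring) and a median of −0.21.

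Set against the activation genes, Cygb, Des and both Reln probe sets had a positive correlation and the other 6 probe sets a negative one. Some of these were near 0, and none passed the correction. The vehicle arrays, from 1 to 4, had a mean over the 27 activation genes of 8.74, 7.96, 8.73 and 7.58, and the treated arrays one of 7.05, 7.24, 7.54 and 8.22. Relations to it were computed for the 10 probe sets over 7 values, with the near-identical arrays averaged to 1. Groups of 4, and spike-in groups of at most 4, are too small for a value of their own, so that the difference between groups enters these relations. Cygb had Pearson's r = 0.89 (exact permutation p = 0.0115, two-sided, adjusted p = 0.0575 over 10 relations) and Spearman's rho = 0.82 (exact permutation p = 0.0341, adjusted p = 0.22). Without the 2 values farthest from the median of the activation mean, r was 0.91. Ecm1 ran against the activation mean, with r = −0.77 (exact permutation p = 0.0552, adjusted p = 0.184), rho = −0.71 (exact permutation p = 0.0881, adjusted p = 0.22) and r = −0.88 without those values. The dim Hhip had r = −0.91 (exact permutation p = 0.0111, adjusted p = 0.0575), rho = −0.75 (exact permutation p = 0.0663, adjusted p = 0.22) and −0.96 without them. Des had r = 0.75 (exact permutation p = 0.076, adjusted p = 0.19), rho = 0.71 (exact permutation p = 0.0881, adjusted p = 0.22) and 0.57 without them. Lrat and Rgs5 had r = −0.44 and −0.34 (exact permutation p = 0.322 and 0.454, adjusted p = 0.644 and 0.649), with rho = −0.43 and −0.36 (exact permutation p = 0.354 and 0.444, adjusted p = 0.707 and 0.741) and r = −0.52 and −0.45 without them. The brighter Reln probe set had r = 0.24 (0.009 without them) and the dimmer r = 0.06 (−0.30 without them). Ngfr had r = −0.06 (−0.55 without them) and Colec11 r = −0.37 (−0.71 without them). None of the 10 relations passed the correction (0 of 10).

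**Figure D4:**
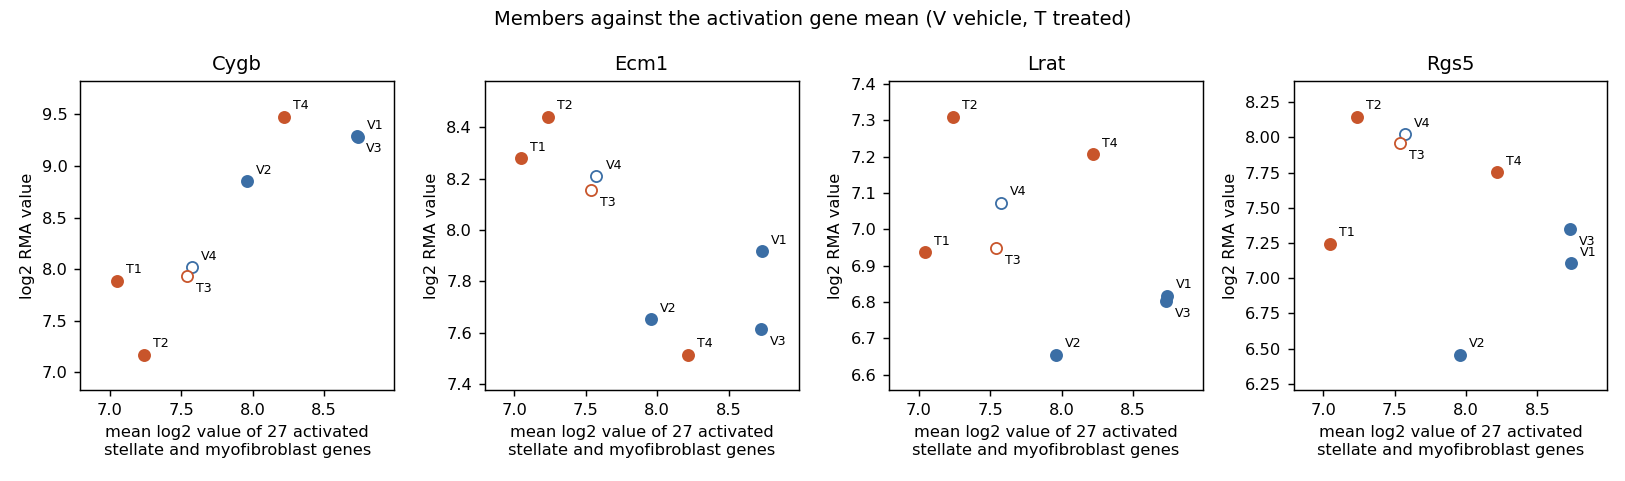
Log2 RMA value of Cygb, Ecm1, Lrat and Rgs5 on each array against the mean log2 value of the 27 activation genes, with vehicle (blue, V) and treated (orange, T) arrays numbered by replicate and open circles for the near-identical arrays. Treated 4 stands with the vehicle arrays for Cygb and Ecm1, and with the treated arrays for Lrat.

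Among themselves, the members did not form a single block. Of 45 pairs of probe sets, 28 correlated positively and 17 negatively over the 7 values, with a median r of 0.20. Cygb and Ecm1 ran in opposite order, with r = −0.93 (exact permutation p = 0.00496, adjusted p = 0.183 over 45 pairs), rho = −0.96 (exact permutation p = 0.00278, adjusted p = 0.125) and r = −0.81 without the 2 farthest values of Cygb. Lrat and Rgs5 ran together, with r = 0.89 (exact permutation p = 0.00813, adjusted p = 0.183), rho = 0.86 (exact permutation p = 0.0238, adjusted p = 0.357) and r = 0.71 without the 2 farthest values of Lrat. The Reln probe sets, which read the same gene, had r = 0.81 (exact permutation p = 0.0367, adjusted p = 0.33) and rho = 0.68 (exact permutation p = 0.11, adjusted p = 0.833). Without the 2 farthest values r was 0.43. Leaving these out also narrows the range, which can itself lower r, so how far their relation rests on those samples was not settled. Of 45 pairs 5 had an unadjusted p under 0.05, among them the dim Hhip with Cygb and with Ecm1, and no pair passed the correction (0 of 45).

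**Figure D5:**
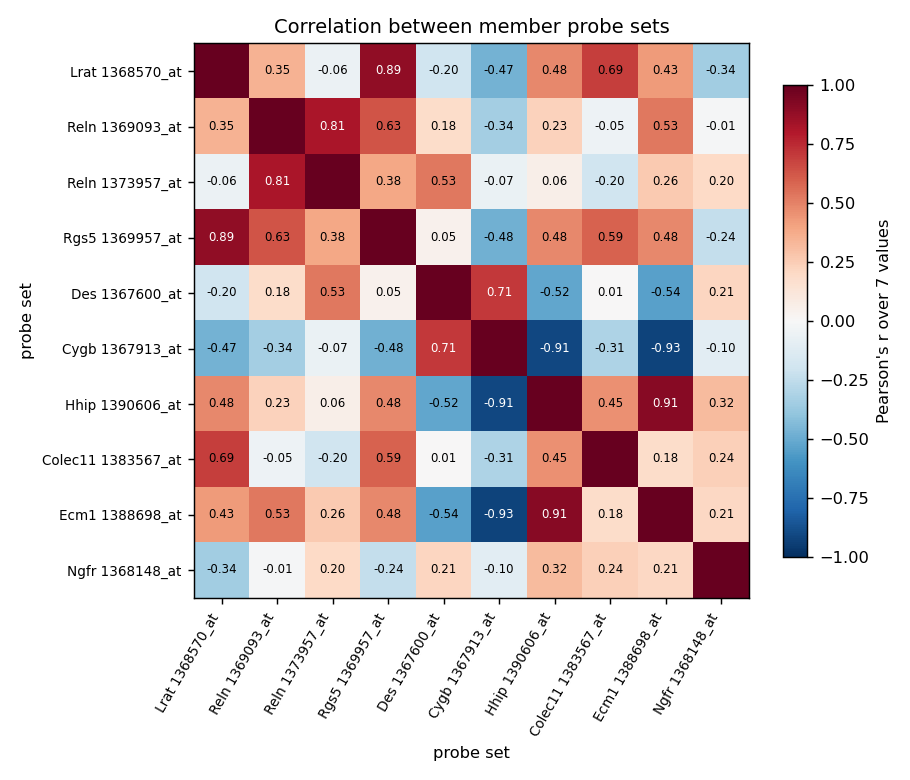
Pearson's r between each pair of the 10 member probe sets over 7 values (6 arrays and the mean of vehicle 4 and treated 3), from blue (−1) to red (1). Cygb is negative with Ecm1 (−0.93) and with Hhip (−0.91), and Lrat is positive with Rgs5 (0.89) and Colec11 (0.695).

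Outside the members, the genes most like each one were taken from 4456 probe sets with 1 symbol, a mean above 6 and an SD of at least 0.3, by Pearson's r over the 8 arrays, in which the near-identical arrays count separately. With so many candidates and 8 arrays high values are common, so these are descriptions. Tlcd4 (1383280_at) was nearest to both Lrat (r = 0.93) and Rgs5 (r = 0.95). After it came Zfp446 (r = 0.89) and Ahr (r = 0.88) for Lrat, and Slc2a1 (r = 0.95) and Ero1a (r = 0.91) for Rgs5. Colec11 was most like Sync (1383599_at), which encodes the intermediate filament protein syncoilin (r = 0.97), then Ptgr1 (r = 0.92) and Eva1a (r = 0.90). Cygb was most like Ankrd10, Tmem123 and Trafd1 (each r = 0.99). Ecm1 was most like Cyp3a18 (1398307_at), a drug-metabolizing cytochrome of hepatocytes (r = 0.97), then Trim2 and Slc25a16 (each r = 0.96). Des was most like Fabp5 (r = 0.98), Atxn10 (r = 0.96) and Dtymk (r = 0.95), and the brighter Reln probe set like Pum3 (r = 0.93), Utp6 (r = 0.91) and Ctdp1 (r = 0.90).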

How the data were processed

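RNA of frozen liver was extracted with Trizol and RNeasy, primed with oligo(dT) and labelled as biotinylated cRNA from 20 µg of total RNA, per the labels' protocols. The authors deposited log2 values made with affy and RMA, per the submitters' processing notes. No version, setting or genome build is given in the sources used here. Small differences at low intensity are drawn towards 0 by RMA. Oligo(dT) labelling starts at the 3′ end, so a probe set's signal also depends on RNA integrity.

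The deposited log2 values were used as they stand (8 arrays, 31099 probe sets, of which 57 controls were left out and 0 columns were unused). Array medians lay between 5.16 and 5.30, and the number of arrays limits the precision. Symbols came from the platform annotation: 20826 probe sets had 1, 436 several and 9780 none. Differences were tested with limma 3.58.1 in R 4.3.3 (lmFit and eBayes, no covariates, 6 residual degrees of freedom before moderation, Benjamini-Hochberg adjustment, threshold 0.05). For lists, the brightest probe set stood for a gene. Background shares at an unadjusted p, set beside list counts, are over all probe sets. Taken per gene in the same way, 398 of 14217 genes were lower and 277 higher at a limma unadjusted p under 0.05. Every member probe set is named. From each list a few genes with the smallest unadjusted p are named, besides direct partners of a member. For members above the median level the 3 most correlated genes are named. The members, lists, alternatives and rules were chosen with earlier results of these data known. Correlations were tested by enumerating all pairings. No source used here says that replicate numbers in the titles pair animals, so the main fit did not pair the samples. The alternatives were other scaling, filters on dim probe sets, variance models, array weights, blocks, an RNA quality covariate and leaving out arrays.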

Additional observations from a re-analysis of the deposited data

Results flagged for a closer look

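Of 20 groups of 4 arrays, 3 held an array far from the other 3, and chance flags about 1 in 20. At the dimmer Reln probe set (1369093_at), vehicle 2 stood at 4.82, and the nearest vehicle array at 5.98. At Hhip (1390606_at), which was dim throughout, treated 4 stood at 3.33, with the nearest treated array at 3.51. At Colec11 (1383567_at), treated 1 stood at 8.80, with the nearest treated array at 9.28.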

How the results depend on the processing

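No member probe set passed an adjusted p of 0.05 under any of the 19 alternatives run (0), with a smallest adjusted p of 0.515. Over all probe sets the count called stayed at 0, except for 3 without both near-identical arrays, and ranged from 0 to 11 when single arrays were left out, with 11 without vehicle 4. Directions of 9 of the 10 member probe sets held under the alternatives run. That of the dimmer Reln probe set turned when single arrays were left out (between −0.28 and 0.20, with −0.28 without vehicle 2, −0.14 without treated 2 and −0.08 without treated 3), and the cause was not tested. The number of members with a lower mean stayed at 4 or 5 of 10 when single arrays were left out, and was 3 of 8 over probe sets with a mean above the 40th percentile. The median member difference of 0.06 ranged from −0.04 (without vehicle 2) to 0.23 (mean log2 value above 6). Median centring added 0.0535 to every difference. The replicate block left 0 probe sets called and moved the count at an unadjusted p of 0.05 from 1220 to 785. Same-numbered arrays did not deviate together from their group means (r = −0.11, 0.04, −0.12 and −0.62). Vehicle 1 and treated 1 did share a spike-in group, and whether the numbers pair animals is not given in the sources used here. Spike-in groups as a block left 0 called. Hhip and Ngfr were too dim for the filters and have no value there, and the dimmer Reln probe set has none above a mean of 6.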
